A study of Danio rerio with 2 samples.

Results

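The miRNAs of neural progenitors and of differentiated neurons were examined in small RNA sequencing of whole zebrafish embryos depleted for Tbx5. The members were taken by name, keeping miR-9, miR-124, miR-128, miR-129, miR-137 and every lettered form of miR-153. These 6 families gave 8 of the 173 miRNA entries in the deposited values. miR-9 stood for neural progenitors, and the other 7 entries, called neuronal miRNAs here, stood for differentiated neurons. The study sequenced 1 library of Tbx5 morphants and 1 of embryos injected with MO-Ct, AB strain in both cases and taken at 48 hpf. By the labels, 1-cell embryos received 1.5 ng of MO-Tbx5a, a morpholino against tbx5a, or 1.5 ng of the control morpholino MO-Ct, and 50 embryos were pooled for total RNA. The paper differs from the labels in that MO-Tbx5b was injected as well, with a control dose matched to the combined amount, and it states that the Tbx5 morphants were picked by their heartstring phenotype. Each condition has 1 library, so no difference has a replicate check and no test between the conditions was made.

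A miRNA is cut from a hairpin transcript and guides the silencing complex to mRNAs that pair with its seed, the bases near its 5' end. miR-9 is abundant in the ventricular zone of the embryonic brain, where in zebrafish it restrains her genes that keep progenitors undifferentiated, and it is absent from the boundary between midbrain and hindbrain. Cells that leave the cell cycle to become neurons switch on miR-124, the classical neuron-enriched miRNA, and miR-128, miR-129, miR-137 and miR-153 are also enriched in neurons. miR-9 is not confined to progenitors, since some neurons also use it.

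Levels are given in rpm, the reads of a miRNA relative to the reads assigned to all listed miRNAs of that library, on a scale that sums to 1000000. In both libraries all 173 values came out as whole reads within their rounding of 0.005 rpm, with totals of 580312 reads for the Tbx5 morphants and 1150157 reads for MO-Ct. These are the smallest totals found, and whole multiples of them would be met as well. The reads and the intervals rest on that choice. With these totals some counts fall below the minimum of occurrences that the paper states for a read sequence, a conflict that was not resolved. FC is the rpm of the Tbx5 morphants divided by the rpm of MO-Ct. Brackets hold 95% exact (Clopper-Pearson) intervals from the reads, which cover counting error alone because each condition has 1 library. They treat reads as independent, which PCR copies are not, so they may be too narrow even for counting error. Well measured miRNAs, the 107 with over 200 rpm in each library, had a median FC of 0.910 (-0.14 in log2), and each FC is read against it. In bulk RNA of whole embryos, fewer cells of a type and less miRNA per cell cannot be told apart. The libraries hold no mRNA, so neither tbx5a knockdown nor neuronal marker genes could be checked, and the neural label rests on the known expression of these miRNAs.

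The deposited entries, listed there as mir-9, mir-137, mir-128, mir-124, mir-153c, mir-153b, mir-129 and mir-153a with their locus numbers, are named by hairpin and join the loci of a miRNA. The miR-9 entry joins 7 loci and the miR-124 entry 6, miR-128, miR-129 and miR-137 join 2 each, and miR-153a, miR-153b and miR-153c are single loci. All 22 loci matched a gene of the RefSeq annotation of the GRCz12tu assembly. Each miR-153 hairpin lay within the span of a gene of the ptprn family, which encodes membrane proteins of secretory vesicles. The hosts were ptprn2 for miR-153a, ptprnb for miR-153b and ptprna for miR-153c. The miR-128 hairpins lay within r3hdm1 and arpp21. Of the 7 miR-9 loci, 4 had a mef2 gene as nearest protein-coding neighbour on one side, namely mef2d, mef2ca, mef2b and mef2cb. The miR-9 locus beside mef2b itself lay within tmem161a. Also within a protein-coding gene lay 2 of the 6 miR-124 loci and 1 of the 2 miR-137 loci. The annotation gives 3 further loci, mir128-3, mir129-3 and mir129-4, that the entries do not name. The entries do not name an arm of the hairpin, so the arms of miR-9 or miR-129 could not be separated. Whether an entry counts 1 arm or both is not stated.

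The 8 entries covered more than 3 orders of magnitude in level, with miR-9 far above the others. miR-9 was the most abundant of all 173 miRNAs in both libraries. miR-137 ranked 28th in MO-Ct and 29th in the Tbx5 morphants, and miR-128 ranked 71st and 64th. The remaining 5 entries ranked between 95th and 117th in MO-Ct and between 87th and 133rd in the Tbx5 morphants, so miR-124 was a miRNA of moderate rank in these embryos. In MO-Ct the order from the top was miR-9, miR-137, miR-128, miR-124, miR-153c, miR-153b, miR-129 and miR-153a. Of its neighbours, miR-124 and miR-153c (ratio 1.11, 0.976 to 1.26) and miR-153b and miR-129 (ratio 1.02, 0.873 to 1.19) were not distinguishable by their reads. In the Tbx5 morphants miR-129 stood directly below miR-128, and miR-124 and miR-153c were again not distinguishable (ratio 1.16, 0.931 to 1.44). How well each sequence was captured in the libraries was not measured, so an order of levels between miRNAs is one of reads.

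**Figure D1:**
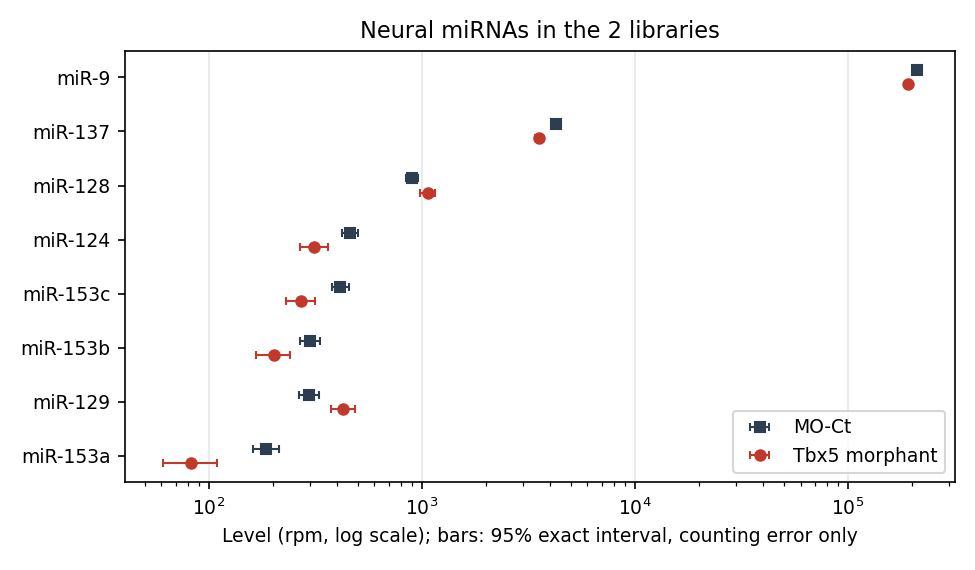
Level of each neural miRNA in rpm on a log scale, as squares for MO-Ct and circles for the Tbx5 morphants, with 95% exact intervals that cover counting error only (1 library each). Levels ran from 82.7 rpm for miR-153a in the Tbx5 morphants to 210670 rpm for miR-9 in MO-Ct, and miR-128 and miR-129 were the entries with the circle to the right of the square.

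miR-9 was slightly lower in the Tbx5 morphants as deposited, by the same factor as the typical miRNA. It had 191730 rpm (190717 to 192745) in the Tbx5 morphants, from 111263 reads, and 210670 rpm (209925 to 211416) in MO-Ct, from 242303 reads. These are 19.2% and 21.1% of all assigned reads. The FC was 0.910 (0.904 to 0.917), which is the median FC of well measured miRNAs. Divided by that median the FC became 1.00, and divided by a trimmed mean of log ratios it became 1.02, so the direction of miR-9 was set by the scaling. With so many reads the counting interval was narrow, and it says nothing of the spread between batches of embryos.

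miR-137, which in mouse neural stem cells represses the chromatin enzyme Ezh2, was the most abundant neuronal miRNA. By that role miR-137 is not confined to differentiated neurons, though it was counted with them here. It had 3560 rpm in the Tbx5 morphants, from 2066 reads, and 4249 rpm in MO-Ct, from 4887 reads. The FC was 0.838 (0.795 to 0.882), below 1 and also below the median FC. The departure from that median was small, with a FC of 0.921 after dividing by it.

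miR-124, which in mammals lowers the splicing factor PTBP1 and thereby shifts splicing to the neuronal programme, was lower in the Tbx5 morphants. Its level was 314 rpm, from 182 reads, against 459 rpm in MO-Ct, from 528 reads. The FC was 0.683 (0.574 to 0.810), and 0.751 after dividing by the median FC. Reads in both libraries were listed for 162 miRNAs, and 31 of these (19.1%) had a lower FC than miR-124.

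miR-128 and miR-129 were the neuronal miRNAs with the higher level in the Tbx5 morphants. miR-128, which dampens the excitability of neurons in mice, had 1065 rpm from 618 reads against 902 rpm from 1038 reads, a FC of 1.18 (1.07 to 1.30). miR-129, which in rat neurons represses a potassium channel mRNA, had 427 rpm from 248 reads against 295 rpm from 339 reads, a FC of 1.45 (1.23 to 1.71). Relative to the median FC they stood at 1.30 and 1.59. The FC of miR-129 was above that of 95.1% of the 162 miRNAs and that of miR-128 above 88.9%. Neither FC was as large as 1.8.

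All lettered forms of miR-153, a miRNA that in zebrafish targets snap25, a component of the synaptic vesicle release machinery, were lower in the Tbx5 morphants. miR-153a had 82.7 rpm, from 48 reads, against 186 rpm in MO-Ct, from 214 reads. Its FC of 0.445 (0.318 to 0.610) was the lowest of the 8 entries, and 5 of the 162 miRNAs had a lower one. miR-153b had 202 rpm from 117 reads against 300 rpm from 345 reads, a FC of 0.672 (0.540 to 0.831). miR-153c had 271 rpm from 157 reads against 415 rpm from 477 reads, a FC of 0.652 (0.541 to 0.783). The forms b and c thus had nearly the same FC, and the least abundant form a had the lowest. MO-Ct had 1.98 times the reads of the Tbx5 morphants, and the miRNAs listed at 0 numbered 11 in the Tbx5 morphants and 0 in MO-Ct. Whether a minimum count weighed more on rare miRNAs of the Tbx5 morphants, and so lowered the FC of miR-153a, was not tested. Summed over the forms, the FC of miR-153 was 0.616 (0.542 to 0.699), with 555 rpm in the Tbx5 morphants and 901 rpm in MO-Ct. Within that sum miR-153a took 14.9% of the reads (11.2 to 19.3) in the Tbx5 morphants and 20.7% (18.2 to 23.3) in MO-Ct, intervals that overlap. The annotation allowed 2 mismatches, so reads of these similar forms may have been shared out between the names, and the sum is the firmer value.

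**Figure D2:**
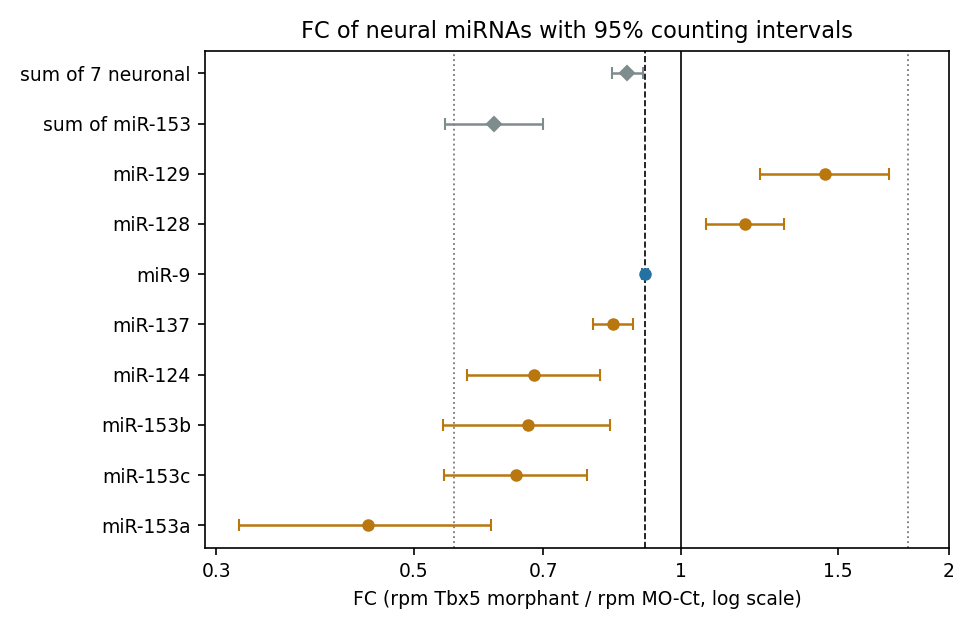
FC of each neural miRNA and of the sums on a log scale, with bars for 95% counting intervals (1 library per condition). The solid line marks a FC of 1, the dashed line the median FC of 0.910 and the dotted lines a change of 1.8-fold. miR-9 lies on the dashed line, miR-128 and miR-129 lie right of the solid line, and miR-124 and the miR-153 forms lie left of the dashed line.

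At the threshold of 1.8-fold, 1 of the 8 entries was past it, miR-153a, which was lower. All 8 entries had reads in both libraries. Among the 162 miRNAs with reads in both, 11.7% were past it in either direction, 9.88% lower and 1.85% higher, so the share of the members is near the background. With the 11 miRNAs listed at 0 in the Tbx5 morphants counted as lower, the shares of all 173 were 17.3%, 15.6% and 1.73%. At 1.5-fold 2 of the 8 entries were past the threshold, beside 26% of all 173 miRNAs, and at 1.2-fold 5 of the 8, beside 54.3%, both with the listed 0 counted as lower. miR-153a had under 200 rpm in both libraries, and of the 7 entries above 200 rpm in MO-Ct none was past 1.8-fold, against 6.03% of all miRNAs above that level. The counting interval lay below 1 for 6 of the 8 entries and above 1 for 2 of them. Over the 162 miRNAs with reads in both libraries these shares were 45.7% and 17.9%. Relative to the median FC, 5 of the 7 neuronal entries were lower, 3 of them forms of miR-153, and 2 were higher. By definition that median divides the well measured miRNAs evenly. Of the 162 miRNAs, 53.1% had a lower FC than miR-9, which lies at that median.

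The contrast of the progenitor miRNA with the neuronal miRNAs was taken as a ratio within each library, which does not depend on the total that rpm refers to. The 7 neuronal entries together had 5921 rpm (5725 to 6122) in the Tbx5 morphants, from 3436 reads, and 6806 rpm (6657 to 6958) in MO-Ct, from 7828 reads. The FC of this sum was 0.870 (0.836 to 0.906). There were 32.4 reads of miR-9 for each neuronal read in the Tbx5 morphants and 31.0 in MO-Ct. The ratio between the libraries was 1.05 (1.004 to 1.09, exact conditional interval), a small difference whose interval lay just above 1. Without miR-137, which made up 60.1% of the neuronal reads in the Tbx5 morphants and 62.4% in MO-Ct, the ratio was 0.986 (0.924 to 1.05) and lay on the other side of 1. Without miR-153 it was 1.00.

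Within the sum, single miRNAs differed in opposite directions. Against miR-153a the ratio of miR-9 was 2.05 times as high in the Tbx5 morphants as in MO-Ct (1.49 to 2.86), and against summed miR-153 it was 1.48 times as high (1.30 to 1.68). Against miR-124 it was 1.33 times as high (1.12 to 1.59), with 611 reads of miR-9 per read of miR-124 in the Tbx5 morphants and 459 in MO-Ct. The ratio to miR-137 was 1.09 times as high (1.03 to 1.14). In the other direction stood miR-128, with 0.771 (0.697 to 0.854), and miR-129, with 0.628 (0.531 to 0.743). The neuronal miRNAs therefore did not move against miR-9 as one group in these libraries.

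**Figure D3:**
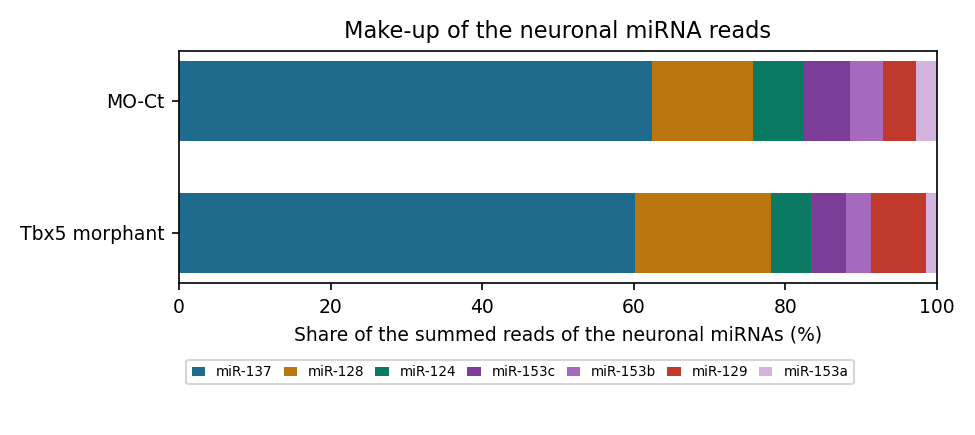
Share of each neuronal miRNA in the summed reads of the 7 neuronal entries, in percent, for MO-Ct above and the Tbx5 morphants below (1 library each). miR-137 took 62.4% and 60.1%, miR-128 13.3% and 18.0%, and miR-129 4.33% and 7.22%, while miR-153a took 2.73% and 1.40%.

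The make-up of the neuronal reads differed in the same way. miR-128 made up 13.3% of them (12.5 to 14.0) in MO-Ct and 18.0% (16.7 to 19.3) in the Tbx5 morphants, and miR-129 4.33% (3.89 to 4.81) and 7.22% (6.37 to 8.13). miR-124 made up 6.75% (6.20 to 7.32) and 5.30% (4.57 to 6.10), and miR-153c 6.09% (5.57 to 6.65) and 4.57% (3.90 to 5.32). Each of the 28 pairs among the 8 entries was compared by its ratio of FC. The 95% interval excluded 1 in 25 pairs, and in 16 pairs after adjusting the interval over the 28 pairs. The order of FC from the lowest was miR-153a, miR-153c, miR-153b, miR-124, miR-137, miR-9, miR-128 and miR-129. With the adjusted intervals, miR-9 and miR-128 were the only neighbours in this order that could be told apart (ratio of FC 0.771, 95% interval 0.697 to 0.854). miR-124 could not be told apart from miR-153b (ratio 1.02, 95% interval 0.770 to 1.34) or miR-153c (ratio 1.05, 0.812 to 1.35). By the adjusted intervals miR-128 and miR-129 each differed from all 6 entries with a lower FC and could not be told apart from each other (ratio 0.814, 95% interval 0.669 to 0.991 before adjusting). These intervals compare 2 libraries and not the conditions.

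The median log2 FC of the 7 neuronal entries was -0.55, beside -0.16 for the 162 miRNAs with reads in both libraries. The 3 forms of miR-153 weigh heavily in that median, since with their rpm summed into 1 value it was -0.26, and without miR-153 it was -0.0082. Non-members between the lowest and the highest neuronal level in MO-Ct numbered 84. Their median FC was 0.885, and 58 of them (69.0%) had a FC below 1, beside 67.3% of the 162. Lower values were thus common at these levels, and the members were spread across the range of the other miRNAs.

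**Figure D4:**
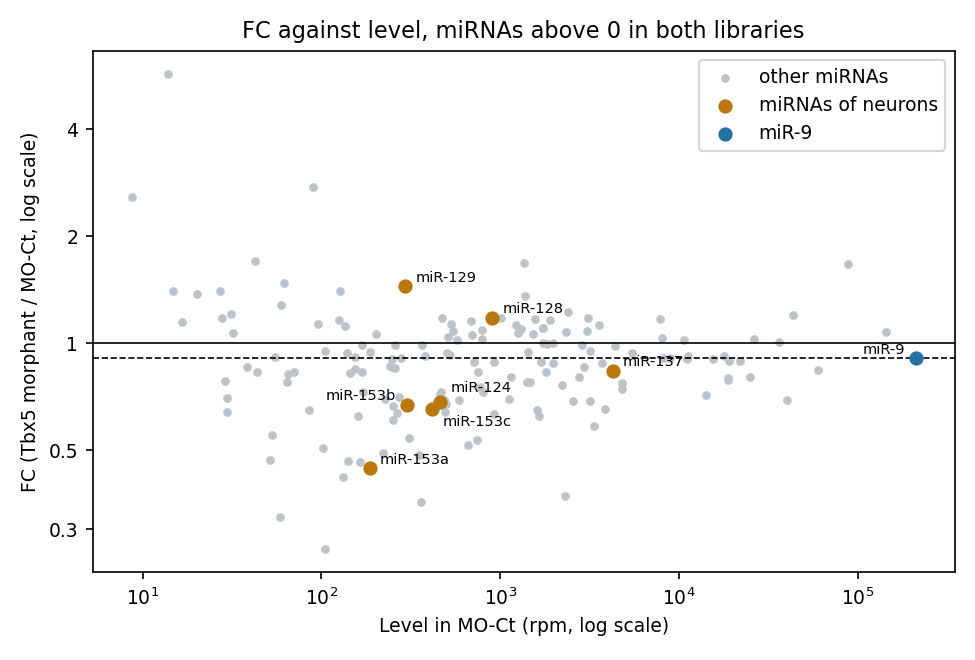
FC against the level in MO-Ct in rpm, both on log scales, for the 162 miRNAs with reads in both libraries (1 point per miRNA). The solid line marks a FC of 1 and the dashed line the median FC of 0.910. The neuronal miRNAs are spread from 0.445 to 1.45 among miRNAs of similar level, and miR-9 lies at the far right on the dashed line.

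With 2 libraries, likeness of pattern can be judged by FC alone. Among 100 non-members above 200 rpm in both libraries, the nearest to miR-9 in log2 FC were miR-183 (FC 0.910), miR-135c (0.910) and miR-182 (0.908). miR-182 and miR-183 are miRNAs of hair cells and other sensory cells. The nearest to the neuronal sum were miR-499 (0.863), miR-192 (0.878) and miR-103 (0.878). Many miRNAs lie close to the median FC, so such matches are easily found.

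Other miRNAs of the nervous system were described from a list of 11 families, of which 10 were present with 18 entries. Of the 16 entries listed above 0 in both libraries, 9 had a FC below 1 and 7 above 1, and the counting interval lay below 1 for 5 and above 1 for 5. Over the 162 miRNAs with reads in both libraries, 67.3% had a FC below 1. The interval lay below 1 for 45.7% of the 162 and above 1 for 17.9%. The median FC of the 16 entries was 0.881, beside 0.683 for the neuronal entries and 0.897 for all 162 miRNAs. The 3 forms of miR-153 weigh on the neuronal median. In log2 it was -0.55, but -0.26 with these forms summed and -0.0082 without miR-153. The lowest FC, 0.358 (0.276 to 0.459), was that of miR-7b, from 75 reads in the Tbx5 morphants and 415 in MO-Ct. The highest, 2.75 (2.12 to 3.58), was that of miR-34, from 143 and 103 reads. Of these 16 entries 3 were past 1.8-fold lower and 1 higher, beside 9.88% and 1.85% of the 162 miRNAs with reads in both libraries. The 2 others, miR-34b and miR-135a, were listed at 0 in the Tbx5 morphants and had 28 and 6 reads in MO-Ct. The lowest value above 0 in the Tbx5 morphants was 11 reads, so a listed 0 may stand for a low count that was filtered out, and no limit or FC is given. The most abundant of the list was miR-181a, with 10951 rpm in the Tbx5 morphants, 10727 rpm in MO-Ct and a FC of 1.02 (0.990 to 1.05). This wider list likewise held differences in both directions, as did the 162 miRNAs as a whole.

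miRNAs of other cell types were read in the same libraries, because rpm are shares of a whole embryo. The muscle list, led by miR-206, summed to 183908 rpm in the Tbx5 morphants and 172451 rpm in MO-Ct, a FC of 1.07. miR-206 alone held most of that sum. Of the 6 muscle entries 4 had a FC below 1, beside 67.3% of the 162 miRNAs with reads in both libraries. Their median FC was 0.945, and miR-133b had 0.640 (0.538 to 0.757). The list for epithelium and skin, led by miR-203b, summed to 73226 and 63517 rpm, a FC of 1.15. Of its 9 entries 7 had a FC above 1, and for 3 of these, miR-203b, miR-141 and miR-205, the interval also lay above 1. The 2 with a FC below 1 were miR-200a and miR-200b, whose intervals also lay below 1. Over the 162 miRNAs the interval lay above 1 for 17.9% and below 1 for 45.7%. Summed FC were 1.01 for the eye list, 0.903 for endothelium, 0.902 for sensory organs, 0.819 for the liver miRNA miR-122 and 0.798 for pancreas. The erythrocyte list was scarce, with 94.8 and 180 rpm, and its 2 members had a FC of 0.464 (0.326 to 0.647) for miR-451 and of 1.15 (0.493 to 2.54) for miR-144. The muscle, skin and erythrocyte lists thus held FC on both sides of 1, as did the 162 miRNAs as a whole. The other lists were short and each lay on one side. The 3 sensory organ entries, the 4 pancreas entries, the 2 endothelium entries and miR-122 had a FC below 1, and the 2 eye entries had a FC above 1. The counting interval excluded 1 for the 3 sensory organ entries, 3 of the pancreas entries and the eye entry miR-204. It included 1 for the 2 endothelium entries, miR-122, the pancreas entry miR-375 and the eye entry miR-184. The sums of these lists mainly follow the most abundant miRNA. miR-21, at 148003 against 88456 rpm, also took a larger share. The part of these shares in the FC of the neural miRNAs was not tested. The rescalings by the median ratio and the trimmed mean divide every FC by a common factor, and every neuronal miRNA kept its side of 1. Those below 1 came nearer to it, as miR-137 did from 0.838 to 0.921 and 0.942, while miR-128 and miR-129 moved further from it.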

How the data were processed

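Total RNA of 1 pool of embryos per condition was made into small RNA libraries enriched for inserts of 18 to 33 nt. By the paper's methods, low quality reads were removed, adaptors trimmed and read sequences with at least 30 occurrences kept. These were annotated to zebrafish miRBase hairpins with up to 2 mismatches and 2 extra bases per end, in CLC workbench. The lowest recovered counts above 0 were 11 reads in the Tbx5 morphants and 6 reads in MO-Ct, below that limit of 30. A limit of 30 within each library would have removed such counts. Whether the limit was applied otherwise or the recovered read scale is too low was not tested. The values they deposited are rpm, 1 per entry and library. Column headings were matched to samples through the sample descriptions.

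Reads were recovered as the smallest total between 50000 and 3000000 for which every rpm value was a whole read count within 0.005 rpm and the reads summed to that total. A read was worth 1.72 rpm in the Tbx5 morphants and 0.869 rpm in MO-Ct. FC intervals were Clopper-Pearson and ratio intervals exact conditional ones. The read recovery, the FC and its intervals, and the intervals of ratios to miR-9 were tested on simulated data, the other steps not. The simulated reads were independent, summed to the library total and had no minimum of occurrences. They therefore cannot decide whether the recovered totals or the intervals are right for these libraries. RefSeq (GRCz12tu) gave names and neighbours. No sequences were printed. All members were named, with the 3 most abundant miRNAs, the 3 nearest in FC and the extremes of the other lists. Members and lists were chosen with earlier results of these data known. Scalings, pseudocounts, minimum levels and left-out families were varied. Values were computed in Python 3.11.15 with SciPy 1.17.1, NumPy 2.4.6 and pandas 2.3.3, and plotted with Matplotlib 3.10.9.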

Additional observations from a re-analysis of the deposited data

How the results depend on the processing

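No paired analysis was possible because only 1 library represents either condition, and no replicate was left out. The cause of the shifts below was not tested. Rescaling by the median ratio put miR-9 at a FC of 1.00 and the neuronal sum at 0.956. Rescaling by the trimmed mean of log ratios put them at 1.02 and 0.979. Without the 3 most abundant miRNAs in the total the neuronal sum had a FC of 0.959. Without miR-9 alone in the total the neuronal sum had a FC of 0.850, further from 1 than as deposited. Neither of these settings was run for miR-9, which is among the 3. Leaving out miR-137, miR-128 or miR-153 gave the neuronal sum a FC of 0.923, 0.823 or 0.909, and the ratio of miR-9 to that sum became 0.986, 1.11 or 1.00. The median log2 FC of the neuronal entries was -0.0082 without miR-153 and -0.26 with the forms of miR-153 summed. At a FC of 1.5 there were 2 members past the threshold and at 1.2 there were 5. With more than 200 rpm in MO-Ct there were 0. These counts follow from the thresholds. For the 7 neuronal miRNAs taken singly, all 42 alternatives kept their side of 1 and 38 stayed within the counting interval. A pseudocount never moves a FC across 1. The other alternatives multiply every FC by a common factor, so the 42 are not independent checks. Depth limits miR-153a most, with 48 reads in the Tbx5 morphants.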

Other observations

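The miR-153 forms were set beside other families with at least 3 forms listed above 0 in both libraries, a description chosen after the data were seen. There were 17 such families, miR-153 included. In 11 of them every form had a FC below 1 and in 2 every form had a FC above 1. A FC below 1 was common among single miRNAs too, at 67.3% of the 162 with reads in both libraries. The span between the lowest and the highest form, on the log2 scale of FC, ran from 0.19 in miR-181 to 1.16 in let-7. miR-153 had a span of 0.60, and miR-133, miR-15, miR-301 and let-7 had wider ones. The miR-181 family, which is also brain-enriched, ran from 1.02 for miR-181a to 1.16 for miR-181c.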
